A study of Mus musculus with 2 samples.

Results

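Melanin-gene rich and melanin-gene poor cells were compared within each of 2 single-cell RNA libraries of B16 F10, a mouse melanoma line that makes melanin in culture. For each cell, the unique molecular identifiers (UMIs, each standing for 1 captured RNA molecule) of Tyr, Tyrp1, Dct, Pmel and Mlana were added and divided by all UMIs of the cell. The top quartile of this melanin-gene share in a library gave the rich cells and the bottom quartile the poor cells, 2018 of 4036 cells in all. There were 475 rich and 475 poor cells among 1900 in the low pigment library, and 534 of each among 2136 in the high pigment library.

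Both libraries came from B16 F10 cultures plated at 100 cells per cm2 and grown for 7 days with 10% serum. No genotype, drug or transgene was named for either. A flow cytometer then divided the cells by side scatter, a light signal that grows with the granules in a cell, into a sort of low and a sort of high pigment, and each sort gave 1 droplet library (10x Genomics). The labels call the cells melanocytes, but the source is a tumour line. Cells of a library are not replicates, so no p-value was computed and every interval covers counting error alone. The cultures behind the 2 sorts are not named as separate, so agreement between the libraries is agreement between 2 sets of cells that may share a culture.

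Melanin is made in the melanosome, an organelle related to the lysosome. Tyrosinase (Tyr) oxidises tyrosine in the first step, and Tyrp1 and Dct act on later intermediates. Pmel forms the fibrils on which the pigment is laid down, and Mlana is a small melanosomal membrane protein that takes part in Pmel maturation. The transcription factor MITF binds E-box DNA motifs near many of these genes, together with SOX10 it sets the pigment program, and alpha-MSH signalling through MC1R raises it. In melanocytes the coactivator PGC-1alpha, encoded by Ppargc1a, is known as an activator of Mitf expression, and Mitf in turn can raise Ppargc1a.

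The share had a median of 1.08% in the low pigment library and 1.39% in the high pigment library. In the low pigment library it ran from 0.121% to 3.21%, and the medians of the 4 quartiles from poor to rich were 0.666%, 0.970%, 1.21% and 1.57%. In the high pigment library it ran from 0.0334% to 3.18%, with quartile medians of 0.897%, 1.26%, 1.54% and 1.91%. These values chose the cells and are given as a description. The cells form 1 continuous peak in each library, so the quartiles are ranges of a score and not cell types. At the lower limit, the last poor cell had 0.844% and the next cell 0.845% in the low pigment library, against 1.102% and 1.103% in the high pigment library. At the upper limit, 1.365% lay just outside and 1.366% just inside in the low pigment library, and both cells were at 1.692% in the high pigment library.

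**Figure D1:**
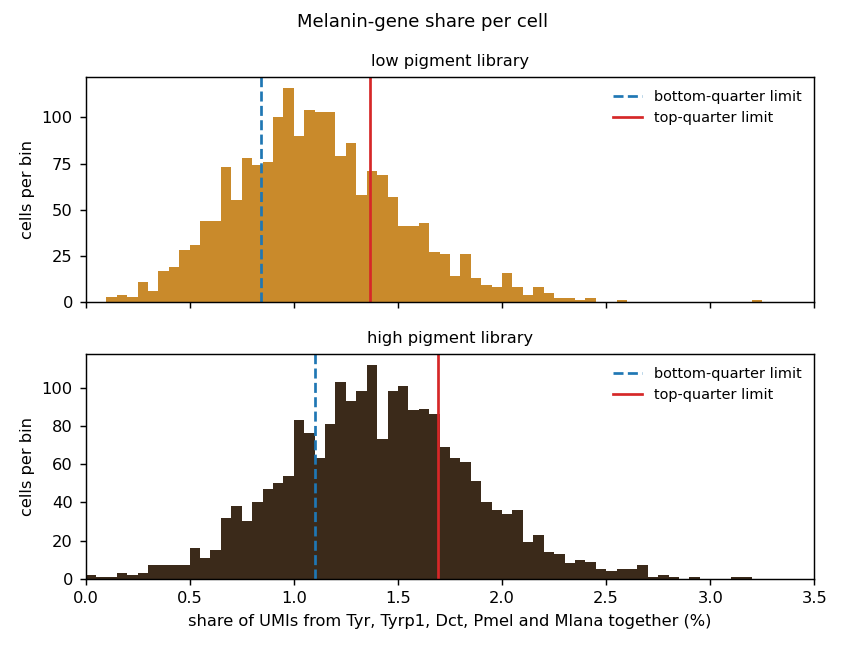
Number of cells (y axis) by melanin-gene share in percent of all UMIs (x axis, bins of 0.05%) in the low pigment (upper) and high pigment (lower) library. The dashed line marks the limit of the bottom quartile and the solid line the limit of the top quartile. Each library shows 1 peak, and the quartile limits lie on its flanks.

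The sorts overlapped in this score. Of the 475 rich cells of the low pigment library, 150 (31.6%, exact Clopper-Pearson 95% interval 27.4% to 36.0%) reached the limit for rich cells of the high pigment library. Of the 534 poor cells of the high pigment library, 219 (41.0%, interval 36.8% to 45.3%) lay at or below the limit for poor cells of the low pigment library. All 475 rich low pigment cells had a higher share than every poor high pigment cell.

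Dct supplied most of the score, 53.7% of the UMIs of the 5 genes in the low pigment library and 57.2% in the high pigment library. Tyrp1 gave 16.8% and 16.3%, Mlana 15.2% and 16.4%, and Pmel 13.1% and 9.18%. Tyr gave 1.15% and 0.873%, so tyrosinase itself had little say in which cells were chosen. Pairs of the 5 genes were weakly to moderately ranked together across cells thinned to 7500 UMIs. The Spearman rho of a pair was highest for Dct with Pmel, 0.49 across 1900 low pigment cells and 0.35 across 2136 high pigment cells, and lowest for Tyr with Tyrp1 (0.04) and Tyr with Mlana (0.01), respectively. The points of such a correlation share a library and its depth, and low counts of Tyr limit it.

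A cut on the other 4 genes shows how far each melanin gene followed the rest, since the gene described then has no part in choosing the cells. Levels are counts per 1000000 (CPM) over all UMIs except those of the 5 genes. Pmel differed most, at 801 CPM in poor and 2207 CPM in rich cells of the low pigment library, 2.75-fold (95% interval 2.68 to 2.83), and in the high pigment library 835 and 1689.9 CPM, 2.02-fold (1.96 to 2.09). Dct was 1.77-fold higher (1.75 to 1.79) and 1.66-fold higher (1.64 to 1.68). Tyr was 1.91-fold (1.74 to 2.09) and 1.67-fold higher (1.51 to 1.84), and Tyrp1 1.78-fold (1.74 to 1.82) and 1.62-fold higher (1.58 to 1.65). Mlana differed least, 1.57-fold (1.53 to 1.61) and 1.39-fold (1.36 to 1.42). Each of the 5 was thus higher in cells picked by the other 4, in both libraries, and each ratio was larger in the low pigment library, a difference between libraries that 1 library per sort cannot test.

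**Figure D2:**
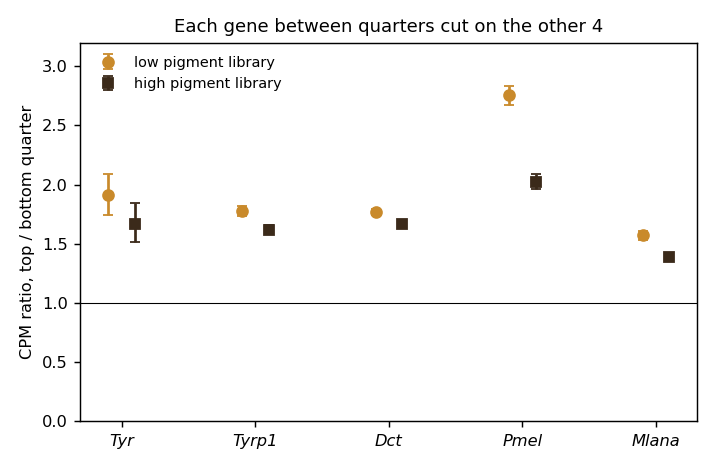
Ratio of CPM between the top and the bottom quartile (y axis) for each of the 5 melanin genes (x axis) when the quartiles are cut on the other 4, in the low pigment and the high pigment library. Bars are exact 95% intervals, and the line marks a ratio of 1. All 10 ratios lie above 1, from 1.39 for Mlana in the high pigment library to 2.75 for Pmel in the low pigment library.

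The rich cells were somewhat shallower and held more mitochondrial RNA, and these values stand beside all results below. Median UMIs per cell fell from 17107 in poor to 14851 in rich low pigment cells and from 12434.5 to 12005 in high pigment cells. Median detected genes were 4418 and 4019, and 3625 and 3469. The median mitochondrial percent per cell, from the authors' table, was 5.14% in poor and 6.17% in rich low pigment cells, and 4.78% and 5.37% in high pigment cells. A doublet caller marked 20 of the 1900 low pigment cells (1.05%) and 17 of the 2136 high pigment cells (0.796%). No barcode sequence was shared between the libraries, with a count of 0 over 4036 cells. The quartile sums held 6724686 to 8488327 UMIs without the 5 genes, so 3 counts, the limit that a count of 0 allows, correspond to 0.353 to 0.446 CPM.

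The lineage of the cells was checked on genes outside the score. Sox10, Pax3 and Mitf were present in every quartile at 111 CPM or more. Markers of other cell types were near 0: fibroblast markers added up to between 1.36 and 4.02 CPM over the 4 sums, leukocyte markers to between 1.93 and 4.77 CPM, and keratinocyte and erythroid markers to at most 0.236 CPM. Col3a1, Lum, Adgre1, Tyrobp, Emcn, Krt10, Krt1, Dsg3, Hba-a1, Hbb-bs, Hbb-bt and Alas2 had no UMI in any of the 4. The endothelial sum was 20.3 CPM in poor and 32.3 CPM in rich low pigment cells and 4.50 and 6.25 CPM in high pigment cells, and 4 of the 6 endothelial markers had at most 3 UMIs in each sum. The Schwann list, which includes S100b and other genes that melanocytes also express, lay between 382 and 423 CPM.

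By the authors' phase calls, G1 held 46.3% (41.8% to 50.9%) of rich and 33.5% (29.2% to 37.9%) of poor cells of the low pigment library, and G2M 22.3% (18.6% to 26.3%) and 29.9% (25.8% to 34.2%). In the high pigment library G1 held 37.1% (33.0% to 41.3%) of rich and 32.2% (28.3% to 36.4%) of poor cells, and G2M 45.3% and 44.8%. S held 31.4% (27.2% to 35.8%) of rich and 36.6% (32.3% to 41.1%) of poor low pigment cells. For high pigment cells the S values were 17.6% (14.5% to 21.1%) and 23.0% (19.5% to 26.8%). When phases were called again on cells thinned to 7500 UMIs, the G1 difference between rich and poor cells was 14.3 percentage points in the low pigment library and 0.562 in the high pigment library, against 12.8 and 4.87 points by the authors' calls. The S difference was then -4 and -3.00 points, against -5.26 and -5.43 by the authors' calls. Of the authors' clusters, cluster 1 held 62.7% of rich and 45.5% of poor low pigment cells and cluster 2 held 33.1% and 52.4%. In the high pigment library cluster 0 held 71.2% of rich and 66.5% of poor cells. The genes behind these clusters were not given in the sources used here, and they may include the 5 genes.

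Genes were counted as measured when their mean over the 4 quartile sums was at least 10 CPM, which left 7918 genes without the 5. A gene was called when rich and poor cells differed by at least 25%, that is when the higher level was at least 25% above the lower, a rule of size with no test. In the low pigment library 639 genes (8.07%) were higher in rich cells and 757 (9.56%) lower. In the high pigment library 403 (5.09%) were higher and 1022 (12.9%) lower. In both libraries 207 genes (2.61%) were higher and 316 (3.99%) lower. When each comparison was scaled so that its median gene had a ratio of 1, 310 genes were higher and 209 lower in both, including all 207 of the first set, so the balance between higher and lower calls depends on that scaling. A share of 32.4% of the genes higher in the low pigment library and 51.4% of those higher in the high pigment library were in the common set, and 41.7% and 30.9% of the lower ones. There were 17 genes called in opposite directions, and none of the 17 was among the 3088 genes with a mean of at least 50 CPM. Across the 7918 genes, which are not independent, Pearson's r between the log2 ratios of the libraries was 0.60 and Spearman's rho was 0.50. Counting error was close to the 25% limit for many genes: the median 95% interval spanned a factor of 1.18 on each side in the low pigment library and 1.20 in the high pigment library. When cells were thinned to 7500 UMIs, 253 genes were higher and 335 lower in both, with 151 of the 207 and 175 of the 316 among them, so calls near the limit are uncertain.

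**Figure D3:**
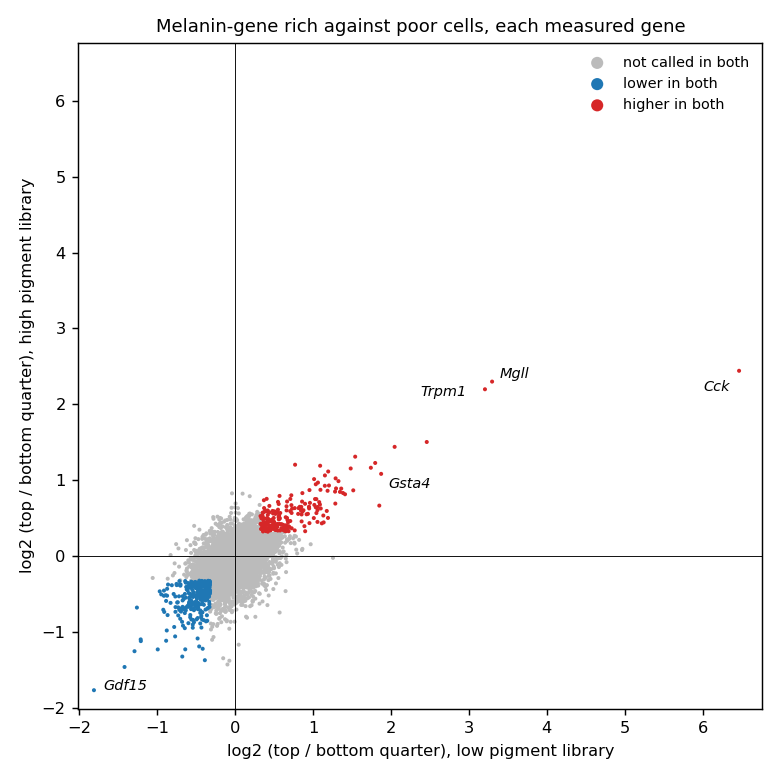
Log2 ratio of rich to poor cells in the low pigment library (x axis) against the same in the high pigment library (y axis), 1 point per measured gene without the 5. Red points are the 207 genes at least 25% higher in both libraries and blue points the 316 lower in both. Trpm1, Mgll and Cck lie far to the upper right and Gdf15 far to the lower left.

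Among the 3088 genes with at least 50 CPM, the 12 with the largest rise in the weaker of the 2 libraries were Trpm1, Bace2, Mgat5, Tspan10, Ppargc1a, Nckap5l, S100a1, Dpy19l1, Slc24a5, Igsf8, Met and Eps8. Trpm1, Bace2, Tspan10 and Slc24a5 among them are genes of melanosomes or pigment cells. All 12 rose at each step from the first to the fourth quartile in both libraries, so the difference did not sit in the extreme cells alone.

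Trpm1, on chromosome 7 (64153835 to 64269775, GRCm38, plus strand), encodes melastatin, a cation channel of melanocytes and retinal bipolar cells. From poor to rich quartile it was at 29.3, 69.4, 129 and 271 CPM in the low pigment library and at 60.0, 114, 196 and 276 CPM in the high pigment library. Rich cells thus held 9.23-fold (8.08 to 10.6) and 4.59-fold (4.13 to 5.11) more. The rich quartiles of the 2 sorts were nearly level and the poor quartiles were apart, with the low pigment poor cells lowest of all.

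Bace2, on chromosome 16, encodes the protease that cuts Pmel on the way to fibrils. It was at 42.9, 74.2, 98.5 and 149 CPM across the low pigment quartiles and at 53.7, 89.9, 101 and 126 CPM across the high pigment quartiles, 3.48-fold (3.08 to 3.92) and 2.34-fold (2.07 to 2.65) between the ends. Slc24a5, on chromosome 2, encodes a potassium-dependent sodium and calcium exchanger needed for normal pigmentation. It rose from 160 to 341 CPM (2.14-fold, 2.0 to 2.28) and from 152 to 279 CPM (1.83-fold, 1.70 to 1.98). Tspan10, a tetraspanin of pigment cells on chromosome 11, rose from 52.8 to 129 CPM (2.44-fold, 2.18 to 2.74) and from 85.1 to 173 CPM (2.03-fold, 1.84 to 2.25). The low and high pigment quartiles of Bace2 and Slc24a5 covered the same range, which was not so for the next genes.

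Ppargc1a, on chromosome 5 (51454250 to 51567726, minus strand), was at 72.9, 85.1, 104 and 152 CPM across the low pigment quartiles and at 163, 217, 258 and 318 CPM across the high pigment quartiles. The rise was 2.09-fold (1.89 to 2.31) and 1.96-fold (1.82 to 2.10). Each high pigment quartile was above all 4 low pigment quartiles, so the rich low pigment cells (152 CPM) did not reach the poor high pigment cells (163 CPM). Eps8, on chromosome 6, encodes an actin-capping protein and substrate of the EGF receptor. It was at 94.5, 121, 165 and 230 CPM and at 228, 290, 338 and 411 CPM, 2.43-fold (2.23 to 2.65) and 1.80-fold (1.69 to 1.92). Here the rich low pigment cells, at 230 CPM, were level with the poor high pigment cells, at 228 CPM. Over the 4 sums Ppargc1a was 2.33-fold and Eps8 2.10-fold higher in the high pigment library than in the low pigment library, against 1.33-fold for Trpm1.

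Lgals3, which encodes the sugar-binding galectin-3, was the exception among the 3 genes proposed as marks of rich cells. It was at 230, 261, 295 and 450 CPM across the low pigment quartiles, 1.96-fold (1.85 to 2.07). In the high pigment library it was at 682, 654, 737 and 760 CPM, 1.11-fold (1.07 to 1.16), under the 25% limit and with the second quartile below the first. That value depends on the score: the log2 ratio of Lgals3 in the high pigment library was 0.16 here, 0.64 by the share without Dct, -0.14 by Dct alone and -0.15 among cells called G1. In the low pigment library it stayed between 0.38 and 1.29 over the settings, and 1 library per sort does not allow a test of the difference. Eps8 and Ppargc1a were higher in rich cells of both libraries; all 3 genes had been proposed from these data, so this is a description.

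The other genes of the 12 have varied roles. Met, the receptor of hepatocyte growth factor, rose from 53.8 to 154 CPM (2.86-fold, 2.56 to 3.19) and from 107 to 195 CPM (1.82-fold, 1.67 to 2.0). S100a1, a calcium-binding protein, rose from 72.6 to 167 CPM (2.30-fold, 2.09 to 2.54) and from 100.4 to 191 CPM (1.91-fold, 1.74 to 2.09). Mgat5, a glycosyltransferase that branches N-glycans, rose from 72.9 to 155 CPM (2.13-fold) and from 80.4 to 184 CPM (2.28-fold). Mgat5 was the only gene of the 12 with the larger rise in the high pigment library. Nckap5l, a centrosomal protein, rose 2.05-fold and 1.93-fold, Igsf8, a partner of tetraspanins, 1.94-fold and 1.83-fold, and Dpy19l1, a mannosyltransferase, 2.22-fold and 1.90-fold.

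**Figure D4:**
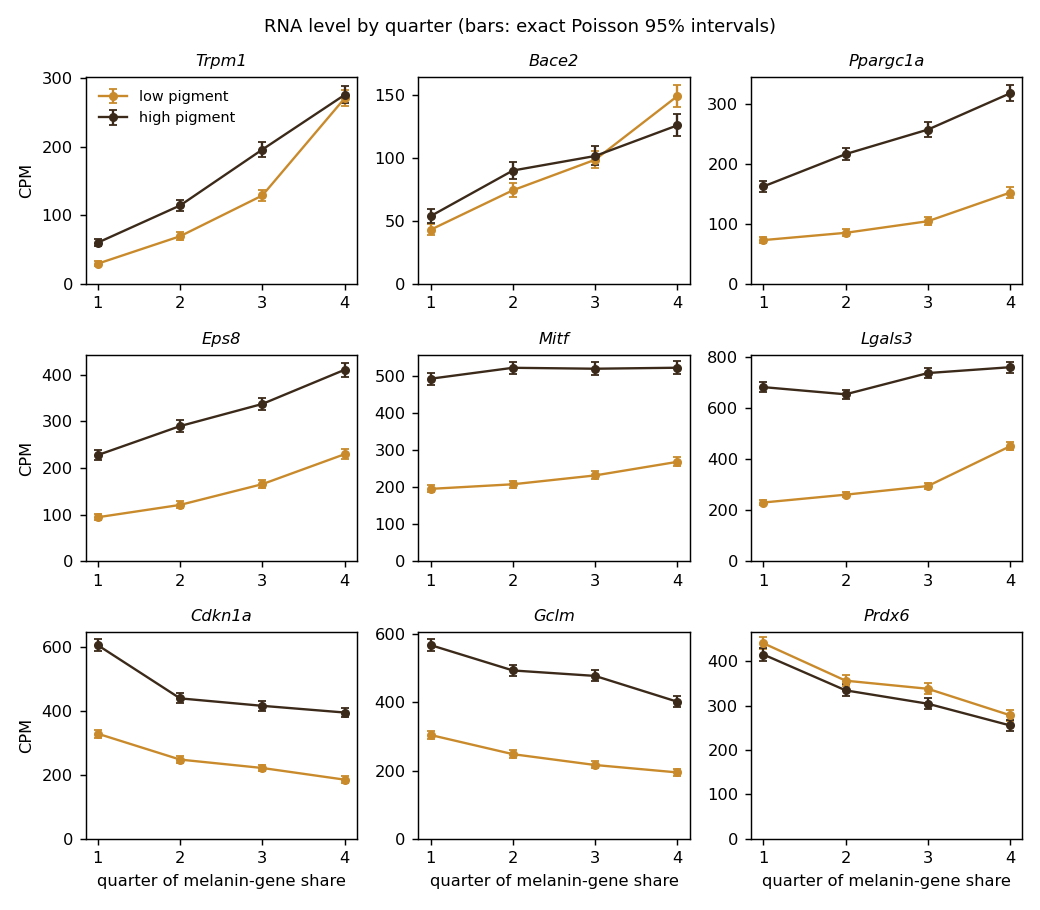
CPM (y axis, from 0) in the 4 quartiles of melanin-gene share (x axis, 1 is poor and 4 is rich) for 9 genes in the low pigment and the high pigment library, with exact Poisson 95% intervals. Trpm1, Bace2, Ppargc1a and Eps8 climb at every step in both libraries, Cdkn1a, Gclm and Prdx6 descend at every step, and Mitf and Lgals3 climb more in the low pigment library.

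MITF binds the E-box hexamer CATGTG, read on the other strand as CACATG, and the palindrome CACGTG. Promoter windows from RefSeq (GRCm38.p6, 250 bases before to 50 after the start) were searched for either hexamer on both strands; the hexamers do not overlap each other. Of the 12 largest genes 10 had an entry, and 5 of the 10 held a match: Trpm1, Tspan10, Ppargc1a, Slc24a5 and Met. They are shown because they are the strongest rising genes with such letters near the start, with the match in capitals. Trpm1 (first of 2 listed starts) lies at chr7:64153585-64153884 on the plus strand, Tspan10 at chr11:120442381-120442680 on the plus strand, Ppargc1a at chr5:51567676-51567975 on the minus strand, Slc24a5 at chr2:125067877-125068176 on the plus strand and Met at chr6:17463707-17464006 on the plus strand.
Trpm1: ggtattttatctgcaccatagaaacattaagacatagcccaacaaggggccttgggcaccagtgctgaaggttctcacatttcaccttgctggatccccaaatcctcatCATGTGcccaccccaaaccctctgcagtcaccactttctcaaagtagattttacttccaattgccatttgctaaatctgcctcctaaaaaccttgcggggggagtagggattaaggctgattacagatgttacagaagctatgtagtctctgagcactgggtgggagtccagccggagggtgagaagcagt
Tspan10: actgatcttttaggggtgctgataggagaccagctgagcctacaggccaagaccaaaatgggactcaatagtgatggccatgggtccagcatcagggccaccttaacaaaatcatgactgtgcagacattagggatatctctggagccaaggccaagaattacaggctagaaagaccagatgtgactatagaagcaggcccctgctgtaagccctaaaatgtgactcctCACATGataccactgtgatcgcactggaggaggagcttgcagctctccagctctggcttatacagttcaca
Ppargc1a: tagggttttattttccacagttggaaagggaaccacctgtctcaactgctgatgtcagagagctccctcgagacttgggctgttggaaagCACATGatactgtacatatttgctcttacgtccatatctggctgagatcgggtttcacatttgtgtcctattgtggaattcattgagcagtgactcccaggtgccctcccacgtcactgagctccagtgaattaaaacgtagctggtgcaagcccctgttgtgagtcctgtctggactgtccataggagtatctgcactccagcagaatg
Slc24a5: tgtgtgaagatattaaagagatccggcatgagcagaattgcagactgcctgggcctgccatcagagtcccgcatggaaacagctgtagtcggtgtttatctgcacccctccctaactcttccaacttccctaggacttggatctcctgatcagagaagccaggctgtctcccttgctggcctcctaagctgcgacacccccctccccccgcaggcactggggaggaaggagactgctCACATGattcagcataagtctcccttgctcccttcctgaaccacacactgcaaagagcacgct
Met: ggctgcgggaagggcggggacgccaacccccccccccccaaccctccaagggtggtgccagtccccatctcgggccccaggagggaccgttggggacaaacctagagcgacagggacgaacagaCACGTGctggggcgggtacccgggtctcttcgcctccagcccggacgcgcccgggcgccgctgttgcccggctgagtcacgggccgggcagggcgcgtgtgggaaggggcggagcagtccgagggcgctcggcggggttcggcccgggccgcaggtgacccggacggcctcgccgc

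The matches begin 141 bases before the start in Trpm1, 21 in Tspan10, 160 in Ppargc1a, 13 in Slc24a5 and 126 in Met. Met holds CACGTG and the other 4 windows printed hold CATGTG on one strand. The window at the second listed Trpm1 start, not printed, holds CACGTG and CACATG. Over all genes higher in both libraries with an entry, 52 of 168 (31.0%) held either hexamer, against 51 of 249 (20.5%) of those lower in both and 1332 of 6387 (20.9%) of measured genes. The measured genes of this search were taken from 7923 that include the 5 genes of the score. Over all 27025 genes with an entry, the share with either hexamer was 22.7%. A gene counted when any of its listed windows held a match. The difference between higher and measured genes was larger for CATGTG, found in 17.9% of the higher genes, 8.03% of the lower genes and 9.43% of the measured genes. Over all 27025 genes with an entry, many of them not measured here, CATGTG was found in 15.9%, closer to the share among the higher genes. CACGTG was found in 15.5%, 13.7% and 12.9%. The Trpm1, Tspan10, Ppargc1a and Slc24a5 windows share the longer run ATCATGTG (CACATGAT on the other strand), which was noticed only after the windows had been read. This run contains CATGTG, and it was found in 0.914% of the 27025 genes with an entry. It was found in 7 of the 168 genes higher in both libraries (4.17%; Mc1r, Myo7a, Orai3, Ppargc1a, Slc24a5, Trpm1 and Tspan10), in 1 of the 249 lower genes (0.402%) and in 29 of the 6387 measured genes (0.454%). The 4 genes in which it was noticed are part of that count; without them it was found in 3 of 164 higher genes (1.83%) and 25 of 6383 measured genes (0.392%), too few to read a difference from. A match is only a run of letters in this window; binding was not measured in these libraries.

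Beyond the 5 genes of the score, the list of other melanosome and pigment genes rose almost as a whole. Of 14 listed genes 13 were measured, 11 were higher in both libraries and none was lower in both, beside 2.61% and 3.99% of all measured genes. Their median log2 ratio was 0.90 in the low pigment library and 0.75 in the high pigment library, beside -0.03 and -0.08 over all measured genes. Ptgds, which encodes prostaglandin D synthase and is abundant in melanocytes, rose from 1008 through 1336 and 1696 to 2560 CPM and from 1756 through 2239 and 2663 to 3156 CPM, 2.54-fold (2.48 to 2.61) and 1.80-fold (1.76 to 1.84). Slc45a2, a melanosomal transporter, rose from 301 to 547 CPM and from 344 to 612 CPM, 1.82-fold (1.73 to 1.91) and 1.78-fold (1.69 to 1.87).

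Gpr143, the receptor of the melanosome membrane lost in ocular albinism, was 2.06-fold and 1.68-fold higher. Gpnmb, a glycoprotein related to Pmel, was 1.61-fold and 1.31-fold higher at 1095 and 1760 CPM and at 1334 and 1753 CPM. Cited1, a pigment-related transcriptional coregulator, was 1.86-fold and 1.26-fold higher. Mc1r, the melanocortin receptor, was 1.41-fold (1.20 to 1.66) and 1.37-fold (1.12 to 1.67) higher, and Atp7a, which loads copper onto tyrosinase, 1.28-fold and 1.29-fold. Mcoln3, a cation channel of endolysosomes, was 1.33-fold and 1.18-fold higher, the second under the limit. Slc7a11, the cystine transporter behind pheomelanin synthesis, went the other way, from 117 to 89.0 CPM and from 163 to 138 CPM, 1.32-fold (1.19 to 1.45) and 1.18-fold (1.08 to 1.29) lower. Slc7a11 is also known as an NRF2 target, a group described below.

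Genes that move and mature melanosomes changed in part. Of 23 measured members 5 were higher in both libraries, beside 2.61% of all measured genes, none was lower in both, and the medians of 0.07 and -0.01 lay near those of all genes. Rab27a and Myo5a belong to the complex that ties melanosomes to actin. Rab27a, a small GTPase, was 2.45-fold (2.05 to 2.94) and 1.86-fold (1.58 to 2.18) higher, and Myo5a, an unconventional myosin, was at 111 and 215 CPM and at 147 and 230 CPM, 1.93-fold (1.78 to 2.09) and 1.57-fold (1.45 to 1.70). Rab38, which brings Tyr and Tyrp1 to melanosomes, was 1.60-fold and 1.36-fold higher. Sytl2, a Rab27a effector, was 2.26-fold and 1.51-fold higher, and Hps3, a subunit of the BLOC-2 sorting complex, 1.94-fold and 1.63-fold. The BLOC-1 subunits Bloc1s2 and Bloc1s6 had log2 ratios below 0 in both libraries, with 1.17-fold and 1.15-fold lower levels for Bloc1s2.

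The transcription factors of the lineage moved little between poor and rich cells. None of 10 measured members passed the 25% limit in both libraries, beside 2.61% of all measured genes higher and 3.99% lower. The medians of the list were 0.05 and 0.08. Mitf was at 195, 207, 231 and 268 CPM across the low pigment quartiles, 1.37-fold (1.29 to 1.47). Across the high pigment quartiles Mitf was at 492, 521, 519 and 521 CPM, 1.06-fold (1.01 to 1.11), level from the second quartile on. Every high pigment quartile was above every low pigment quartile. Sox10 was 1.17-fold (1.07 to 1.28) and 1.12-fold (1.04 to 1.20) higher in rich cells, and Pax3, which acts with Sox10 on Mitf, was at 307 and 321 CPM and at 276 and 275 CPM. Of 17 listed factors 7 were under 10 CPM and were not described.

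The genes of the PGC-1alpha axis did not follow Ppargc1a. Ppargc1a was the only 1 of 9 measured members higher in both libraries, beside 2.61% of all measured genes. The medians of the list were -0.11 and -0.24. Tfam, which packages and transcribes mitochondrial DNA, was at 47.5 and 36.9 CPM and at 46.1 and 38.2 CPM, 1.28-fold (1.10 to 1.5) and 1.21-fold (1.02 to 1.43) lower in rich cells. Nrf1, a nuclear factor for respiratory genes, was 1.14-fold and 1.35-fold lower, Tfb2m 1.17-fold and 1.32-fold lower, and Gabpa 1.01-fold and 1.41-fold lower. Esrra, the PGC-1alpha partner ERR-alpha, lay at 13.3 CPM or less in every sum, and its intervals of 0.952 to 1.74-fold and 0.768 to 1.63-fold lower included 1. Cs and Idh3a, of the citric acid cycle, and Sod2 stayed within 1.18-fold.

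Of 43 measured nuclear genes of oxidative phosphorylation, Ndufa3 alone was higher in both libraries, 1.3-fold and 1.28-fold. That count is near the 2.61% of all measured genes called higher. Small shifts were common, with ratios above 1 in both libraries for 28 of the 43, beside 1942 of 7918 measured genes. The medians of the 43 were 0.13 and 0.08. Uqcrq, of complex III, was at 926 and 1076 CPM and at 1129.9 and 1531 CPM. None of the 13 mitochondrially encoded genes passed the limit in both libraries, beside 2.61% of all measured genes higher and 3.99% lower. These 13 had medians of 0.23 and 0.11. With quartiles cut within quintiles of mitochondrial percent their medians were 0.00 and -0.05, as that cut largely fixes them.

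Genes of the p53, NRF2 and immediate early lists stood among those lower in rich cells. The 12 genes at 50 CPM or more with the largest fall in the weaker library were Hmga2, Cxcl10, Junb, Cst6, Prdx6, Cdkn1a, Egr1, Mdm2, Blvrb, Rhob, Gbe1 and Gclm. Of the 12, 10 fell at every step from the first to the fourth quartile in both libraries. Hmga2, a chromatin protein of embryonic and tumour cells, was at 88.1, 69.7, 56.5 and 46.5 CPM and at 159, 131, 119 and 97.3 CPM, 1.90-fold (1.67 to 2.16) and 1.63-fold (1.48 to 1.80) lower. Hmga2 was 1.92-fold higher in the high pigment library as a whole, so it fell with the share within a library and was higher in the sort with the higher share. Cxcl10, a chemokine, was 1.63-fold and 1.77-fold lower, and Cst6, a cysteine protease inhibitor, 1.60-fold and 1.59-fold lower.

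The p53 targets were the only list of the 28 whose measured members all lay on 1 side, with 13 of 13 ratios below 1 in both libraries, beside 3592 of 7918 measured genes. In both libraries 6 of the 13 were called lower, beside 3.99% of all measured genes, and none higher. Their medians were -0.31 and -0.48. By the share without Dct, Zmat3 (log2 0.09 in the low pigment library) and Aen (0.19 and 0.02) had ratios above 1, so the uniform direction holds for the share of all 5 genes. Cdkn1a, which encodes the cell cycle inhibitor p21, was at 329, 248, 222 and 185 CPM and at 606, 440, 416 and 395 CPM, 1.78-fold (1.66 to 1.90) and 1.53-fold (1.46 to 1.61) lower. In the low pigment library 1 poor cell held 9.35% of the Cdkn1a UMIs of its quartile, and the log2 ratio was -0.69 without it and -0.83 with it. Mdm2, the ubiquitin ligase of p53, fell from 145 to 90.9 CPM and from 175 to 117 CPM, 1.60-fold (1.45 to 1.76) and 1.5-fold (1.37 to 1.64).

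Gdf15, a secreted stress cytokine, showed the steepest fall of the group, from 29.7 through 18.6 and 15.5 to 8.45 CPM and from 25.3 through 12.3 and 10.8 to 7.44 CPM. That is 3.51-fold (2.65 to 4.72) and 3.40-fold (2.48 to 4.76) lower, on 252 against 62 and 180 against 50 UMIs. Eda2r, Trp53inp1 and Btg2 were also lower in both libraries. Bax and Aen, further p53 targets, stayed under the limit at 1.13-fold and 1.20-fold and at 1.12-fold and 1.21-fold lower. Across the sorts the p53 targets did not follow the share: the high pigment library held more of them, their median log2 ratio to the low pigment library being 0.26, while within each library the cells richer in melanin-gene RNA had less of them.

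NRF2 targets, the genes of thiol and redox defence, were lower as well. Of 21 measured members 9 were lower in both libraries and 1 was higher, beside 3.99% and 2.61% of all measured genes, with medians of -0.32 and -0.28. Prdx6, a peroxiredoxin, fell from 440 through 356 and 338 to 278 CPM and from 415 through 334 and 304 to 255 CPM, 1.58-fold (1.5 to 1.67) and 1.63-fold (1.53 to 1.73). Gclm, a subunit of the enzyme that limits glutathione synthesis, fell from 304 to 195 CPM and from 568 to 402 CPM, 1.56-fold (1.47 to 1.67) and 1.41-fold (1.35 to 1.48). Nqo1, a quinone reductase, was 1.71-fold and 2.08-fold lower, and Txnrd1, thioredoxin reductase, was at 471 and 316 CPM and at 479 and 339 CPM. Hmox1, Srxn1, Gsr, G6pdx and Osgin1 made up the rest of the 9. Blvrb, which encodes a flavin reductase also called biliverdin reductase B, was no member of the list and was 1.49-fold and 1.75-fold lower. Gsta4, a glutathione transferase that detoxifies 4-hydroxynonenal, was the 1 listed member that rose, from 20.6 to 75.5 CPM and from 30.7 to 65.0 CPM, 3.66-fold (3.09 to 4.37) and 2.12-fold (1.80 to 2.51). Outside the list the related transferase genes Gsta1 and Gm3776, at lower levels, rose in both libraries too, as given under the other observations.

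Immediate early genes, which respond within minutes to growth factors and to handling of cells, were lower in number and size more in the high pigment library, a difference not tested with 1 library per sort. There 19 of 21 measured members were called lower, beside 12.9% of all measured genes, against 7 of 21 in the low pigment library, beside 9.56%. Junb, Egr1, Atf3, Btg2, Zfp36 and Myc were lower in both, and the medians were -0.18 and -0.75. Junb was at 124, 101, 90.2 and 78.0 CPM and at 70.7, 50.04, 46.5 and 37.5 CPM, 1.59-fold (1.44 to 1.76) and 1.89-fold (1.62 to 2.20) lower. Egr1 was at 115 and 76.1 CPM and at 22.5 and 12.2 CPM, with the third high pigment quartile (19.9 CPM) above the second (15.3 CPM). Jun was at 924 and 822 CPM in the low pigment library and in the high pigment library at 180 and 104 CPM, which is 1.12-fold and 1.73-fold lower. Over all its cells the high pigment library held much less of these genes, at a median log2 ratio to the low pigment library of -2.12, so low counts there widen the intervals.

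Growth-related genes were also lower. Of 24 measured ribosome biogenesis genes 6 were lower in both libraries, beside 3.99% of all measured genes, 23 had ratios below 1 in both, beside 3592 of 7918, and the medians were -0.29 and -0.32. Ncl, which encodes nucleolin, was at 1839 and 1419 CPM and at 1837 and 1375 CPM. Of 44 measured S phase genes 5 were lower in both, Mcm7, Cdca7, Uhrf1 and Ccne1 among them, with medians of -0.23 and -0.24, and of 51 measured G2M genes 4 (Cdc20, Ndc80, Gtse1 and Hmmr), with medians of -0.30 and -0.14, both counts again beside 3.99%. With quartiles cut within each of the authors' phases the S phase medians were -0.09 and -0.16 and the G2M medians -0.11 and -0.12. With quartiles cut within deciles of UMIs per cell, the S phase medians were -0.10 and -0.26 and the G2M medians -0.10 and -0.14. In cells thinned to 7500 UMIs the S phase medians were -0.22 and -0.16 and the G2M medians -0.29 and -0.10. The size of the low pigment fall thus depended on how depth was handled. Ribosomal protein genes, 33 measured, stayed level, with medians of -0.03 and 0.07. None was called in both libraries, beside 2.61% of all measured genes higher and 3.99% lower.

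The size of the stress and growth groups moved with the weight of Dct in the score. When the share was taken without Dct, the p53 medians were -0.10 and -0.13, the ribosome biogenesis medians -0.08 and -0.03, and the immediate early medians -0.12 and -0.32. The S phase medians were then -0.07 and 0.07. The NRF2 medians were -0.30 and -0.21 and those of the other pigment genes 0.80 and 0.63. By this share 201 genes were higher in both libraries, 124 of them among the 207 above, and 135 were lower, 86 of them among the 316.

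**Figure D5:**
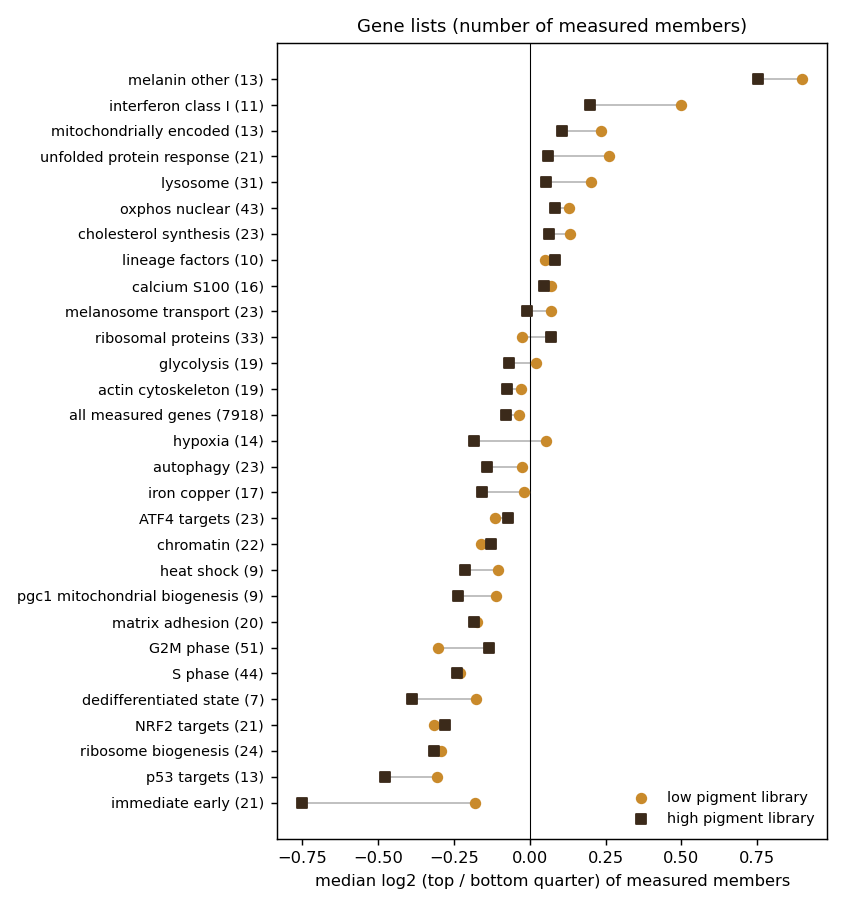
Median log2 ratio of rich to poor cells over the measured members of each gene list (x axis), with 1 circle for the low pigment and 1 square for the high pigment library, ordered by their sum. Numbers in brackets are measured members. Other melanin genes lie farthest to the right, followed by the interferon and class I list, and the p53, NRF2, ribosome biogenesis and immediate early lists lie at the left.

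Among the other lists, interferon-response and class I genes were higher, 4 of 11 measured in both libraries (Isg15, Bst2, Ddx58 and Tapbp), beside 2.61% of all measured genes, with medians of 0.50 and 0.20. By the share without Dct these medians were 0.24 and 0.27. Of 24 listed genes 11 were measured, and 9 of these had ratios above 1 in both libraries, beside 1942 of 7918 measured genes. Ifit2 (log2 ratios -0.38 and -0.24) and Psmb10 (-0.10 and -0.46) went the other way in both. Cxcl10, an interferon-induced chemokine outside this list, was also lower in both libraries, as given above. Bst2, which encodes tetherin, was at 194, 209, 250.6 and 287 CPM and at 182, 215, 221 and 259 CPM, 1.48-fold (1.39 to 1.58) and 1.42-fold (1.32 to 1.53). Isg15 was at 15.1 and 31.4 CPM and at 18.3 and 24.98 CPM. Of 31 lysosome genes none passed the limit in both libraries, beside 2.61% of all measured genes higher and 3.99% lower. The medians of that list were 0.20 and 0.05, and Atp6v0c, a subunit of the proton pump, was at 1068 and 1463 CPM and at 1206 and 1432 CPM. Optn, a receptor of selective autophagy, was 1.58-fold and 1.52-fold higher. It was the only 1 of 23 autophagy genes called higher or lower in both libraries, near the same shares of all measured genes.

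Calcium and S100 genes split. S100a1, S100b, Orai3 and Itpr2 were higher in both libraries, and S100a10 and S100a11 lower, of 16 measured. For this list and those that follow, the shares over all measured genes were 2.61% higher and 3.99% lower. Among 20 measured matrix and adhesion genes, Spp1, which encodes osteopontin, was 2.08-fold (1.92 to 2.25) and 1.52-fold (1.42 to 1.63) higher. Fn1, Col4a1 and Itga4 of that list were lower in both, Fn1 at 33.9 and 21.7 CPM and at 47.7 and 24.7 CPM. In glycolysis, 19 measured, Hk2 was 1.49-fold and 1.48-fold higher while its paralog Hk1 was 1.49-fold and 1.3-fold lower and Eno1 1.26-fold and 1.27-fold lower. Slc40a1, the iron exporter ferroportin, was 1.85-fold and 1.51-fold lower. Edem1 was the 1 of 21 unfolded protein response genes higher in both and Ddit4 the 1 of 14 hypoxia genes lower in both. Cholesterol synthesis and heat shock genes, 23 and 9 measured, had none called in both. In lists of this size no call or 1 call lies near the shares over all measured genes.

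The cells of the second and the third quartile took no part in the comparison of the extremes. They were ordered by the same share and lay closer in it. Between them 23 genes (0.290%) were higher in the third quartile in both libraries by the same rule, and 9 (0.114%) lower. For the 12 genes at each end, the rise or fall at every step described above already includes this step. All 12 of the largest rising genes were higher in the third than the second quartile in both libraries, and 10 of the 12 largest falling genes were lower, all but Egr1 and Gbe1 in the high pigment library. Of the 207 genes higher in rich cells 157 (75.8%) had the same direction in both libraries between the middle quartiles, beside 26.0% of all measured genes. Of the 316 lower genes 175 (55.4%) did so, beside 28.4%. Among the 12 largest rising genes Trpm1 led here too, with log2 ratios of 0.89 and 0.78 between the middle quartiles.

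The rich low pigment cells can be set beside the poor high pigment cells, where share and sort point in opposite directions. Their median shares were 1.57% and 0.897%. Trpm1 was at 271 CPM in the rich low pigment and 60.0 CPM in the poor high pigment cells, Bace2 at 149 and 53.7 CPM, and Slc24a5 at 341 and 152 CPM, all higher in the cells with the larger share. Mitf was at 268 and 492 CPM and Lgals3 at 450 and 682 CPM, both higher in the sort with more pigment, whose cells had the smaller share. For Cdkn1a, at 185 and 606 CPM, share and sort point the same way, since it fell with the share within each library and was higher in the high pigment library. Eps8 and Ppargc1a were about level in that pair. These are levels of 1 library each, given side by side with no test.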

How the data were processed

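The deposited matrix gives, for 5818 barcodes and 32285 features, UMI counts, made with Cell Ranger 6.1.2, per the submitters' processing notes. Whether depth was equalised between the libraries is not stated in the sources used. The 4036 cells listed in the authors' deposited table were used, with its sort, phase and cluster, its percent of mitochondrial UMIs, and its score per cell for gene sets that are not given, which were not analysed further. The table's filters were not given. Features that share a symbol were summed (40 fewer rows), and 0 columns lacked a sample. The barcode's library matched the sort in 4036 cells, and a cell's total counts in the matrix were within 17 UMIs of its tabulated total.

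Cells were ranked by the share of the 5 genes, raw counts were added per quartile and library, and CPM were taken over totals without the 5. Ratios have exact conditional binomial 95% intervals, levels exact Poisson intervals, and shares Clopper-Pearson intervals, all for counting error only. Genes with a mean of at least 10 CPM were measured, and a level at least 25% above the other was called, by size alone. The 12 largest and 12 smallest weaker log2 ratios at 50 CPM or more were named, with the 5 genes, Eps8, Lgals3 and Ppargc1a, 3 lists in full and up to 5 members of each other list; genes that name a list's calls, and single examples beside them, were chosen after their values were seen. The members and the 28 gene lists were chosen with earlier results of these data known. Doublets were marked with scanpy 1.11.5 (expected rate 0.06) and kept. edgeR 4.0.16 gave TMM factors, used only as an alternative scaling. Scripts were tested on simulated data. Gene positions are from the GENCODE annotation of GRCm38 and promoter windows from RefSeq on GRCm38.p6. Alternatives were other cuts, depths, phases, scalings and level limits.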

Additional observations from a re-analysis of the deposited data

Results flagged for a closer look

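A pair of listed genes differed by at least 25% in opposite directions in the 2 libraries, and this difference was not tested, as each sort had 1 library. Slc16a3, a lactate transporter of the glycolysis list, had a log2 ratio of rich to poor cells of 0.65 in the low pigment library (85 and 115 UMIs) and -0.46 in the high pigment library (83 and 57 UMIs). Pecam1, an adhesion molecule known from endothelium, had 0.52 (153 and 190 UMIs) and -0.36 (19 and 14 UMIs).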

How the results depend on the processing

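Counts of genes called by size moved most with the cells and the level limit chosen. With tertiles in place of quartiles, 458 genes were lower in the low pigment library and 194 in both. With deciles, 1147 were higher and 1631 lower in the low pigment library, 848 and 2202 in the high pigment library, and 407 and 850 in both. Among cells called G1 the numbers were 1111 and 1183, 815 and 1850, and 502 lower in both. With a limit of 2 CPM they were 1274 and 1397, 927 and 1801, and 409 and 561 in both, and with 50 CPM 201 and 162, 117 and 241, and 82 and 80 in both. With the median gene set to 1, the high pigment library gave 697 and 623 and both gave 209 lower; with TMM it gave 694 and 621. The higher genes made up 39.6% of the calls in both libraries, 59.7% with the median gene set to 1, 58.1% with TMM, 59.8% by the share without Dct and 50.6% at 50 CPM. By the share without Dct, 441 genes were lower in the high pigment library and 135 in both. Without the lowest and highest 5% of cells, an alternative chosen after seeing the data, 176 were lower in both. Over 17 settings, all 408 values of the 12 largest genes kept their direction and passed the 25% limit, and all 408 values of the 12 smallest kept their direction, 402 of them past the limit. Over all 174 called values of named genes, 2954 of 2958 alternative values kept their direction and 2674 the limit. The other 4 reversed: Zfp36 in the low pigment library with thinned cells (0.0563), Dnajb1 in the high pigment library by the share without Dct (0.0726), and Cdca7 in G1 cells (0.0690 and 0.418). No cause of these moves was tested beyond the number of cells or genes a setting leaves. Depth limits genes with few UMIs; the smallest quartile sum of a measured gene was 7 UMIs, for Cck in poor low pigment cells. Rich and poor cells were compared within each library, and with 1 library per sort no paired test was run.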

Other observations

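Below 50 CPM some genes differed more than any named above, and these were chosen after their values were seen. Mgll, which encodes monoacylglycerol lipase, was at 10.0, 19.7, 31.3 and 98.4 CPM across the low pigment quartiles and at 14.8, 25.3, 45.0 and 72.7 CPM across the high pigment quartiles. Rich cells held 9.83-fold (7.84 to 12.5) and 4.92-fold (3.98 to 6.14) more Mgll, seen in 229 of 475 and 219 of 534 rich cells.

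Cck, which encodes the peptide cholecystokinin, was at 0.825, 8.70, 22.5 and 72.9 CPM and at 8.02, 16.1, 51.7 and 43.6 CPM. Unlike Mgll it came from few cells: 39 rich low pigment cells had a Cck UMI and the 10 highest of them held 85.0% of the 535 UMIs, while in the high pigment library 41 rich cells had one and the 10 highest held 74.1% of 293.

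Gsta1, an alpha-class glutathione transferase, was 4.13-fold (3.17 to 5.44) and 2.71-fold (2.14 to 3.46) higher in rich cells, and its listed relative Gm3776 5.5-fold and 2.84-fold. Counts of these near-identical genes may be split between copies. Sema6d, a semaphorin, was 3.34-fold and 2.24-fold higher, and Gjb2, a gap junction protein, 2.29-fold and 2.17-fold.

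On the other side, Adh7, an alcohol dehydrogenase that also acts on retinol, was at 54.1, 33.4, 28.1 and 22.1 CPM and at 58.5, 31.7, 27.2 and 24.5 CPM, 2.45-fold and 2.38-fold lower in rich cells. Fam178b was 2.68-fold and 2.75-fold lower and Sod3, the extracellular superoxide dismutase, 2.32-fold and 2.14-fold. Akap12, a kinase scaffold, was 1.99-fold and 2.35-fold lower.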
